A study of Mus musculus with 6 samples.

Results

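Atm and Npat are a head-to-head gene pair on mouse chromosome 9, and the CpGs described here are those of the 2 genes and of the short CpG-rich stretch from which both are transcribed. The positions were chosen by place alone. Every cytosine position listed in any of the 6 libraries was taken if it lay within the RefSeq extent of Atm (chr9:53437122-53536828, minus strand, build GRCm38.p6, the same as mm10), the extent of Npat (chr9:53536889-53575627, plus strand) or 5 kb beyond them. This gave 44 of the 1352372 positions in the series, where each strand of a CpG counts as a position of its own. Of these, 41 lay in the shared end, meaning the 60 bases between the genes and 1000 bases inside each (chr9:53535829-53537888). The other 3 lay in the body of Atm, and 0 lay in the rest of Npat or in the outer flanks.

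The data are enhanced reduced representation bisulfite sequencing (eRRBS), in which CpG-rich restriction fragments are treated with bisulfite so that unmethylated cytosine reads as T. Long-term stem cells (LT-HSC, Lin- Sca+ Kit+ CD150+ CD48-), short-term stem cells (ST-HSC, the same markers with CD48+) and multipotent progenitors (MPP, Lin- Sca+ Kit+ CD150-) were sorted from bone marrow of male C57BL/6 mice aged 7 to 10 months, with 6 mice pooled per group. KI mice were IDH1+/lsl VavCre+ and Control mice were littermates typed IDH1+/+ VavCre+, so both genotypes carry Cre under the blood-cell promoter Vav and only KI carries the knock-in allele of Idh1. Each genotype and cell type was 1 library, without replicates, so every test on reads below compares 2 libraries and not the conditions. Expression was not measured here, and the sorted cell types could therefore not be checked against their markers. By the lane numbers in the deposited names, Control and KI libraries were never on the same lane, and lane therefore cannot be told apart from genotype.

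ATM is the kinase that is activated by DNA double-strand breaks and phosphorylates checkpoint and repair proteins such as CHK2, p53 and histone H2AX. In blood stem cells it is known for limiting oxidative stress and preserving self-renewal. NPAT is a substrate of cyclin E and CDK2 that switches on the replication-dependent histone genes at the start of S phase. A CpG-rich promoter of this kind is usually free of methylation in normal cells, and dense methylation of such a promoter goes with silencing. Mutant IDH1 makes 2-hydroxyglutarate, which inhibits the TET enzymes that remove methylation. The published work on these mice reports lower ATM in KI stem cells. The comparison here asks only whether the methylation of the promoter differs, and what lowers ATM was not tested.

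RefSeq promoter windows were found for both genes. They reach from 250 bases before to 50 bases after the annotated start, which places the starts of Atm and Npat at 53536671 and 53537047, 376 bases apart, with both windows overlapping by 125 bases. Both starts lie inside the RefSeq extents, which are only 60 bases apart. Below, distances of single positions inside Atm or Npat are counted from these starts. Joined, the windows cover 475 bases with 51 CpGs, a GC content of 63.8% and an observed to expected CpG ratio of 1.06. The windows are printed because the results below turn on which CpGs lie in the sequence CCGG, shown in capitals, each 5′ to 3′ on the gene's own strand. CCGG is the site cut by MspI, the enzyme ordinarily used for reduced representation libraries. The enzyme used here is not named in the sources used here.
Atm promoter, chr9:53536622-53536921, minus strand: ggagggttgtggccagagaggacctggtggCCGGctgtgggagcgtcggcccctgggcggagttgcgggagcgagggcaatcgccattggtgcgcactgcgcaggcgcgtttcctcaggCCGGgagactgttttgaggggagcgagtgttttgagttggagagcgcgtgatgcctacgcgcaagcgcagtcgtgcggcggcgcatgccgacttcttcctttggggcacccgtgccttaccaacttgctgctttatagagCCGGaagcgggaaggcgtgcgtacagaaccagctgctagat
Npat promoter, chr9:53536797-53537096, plus strand: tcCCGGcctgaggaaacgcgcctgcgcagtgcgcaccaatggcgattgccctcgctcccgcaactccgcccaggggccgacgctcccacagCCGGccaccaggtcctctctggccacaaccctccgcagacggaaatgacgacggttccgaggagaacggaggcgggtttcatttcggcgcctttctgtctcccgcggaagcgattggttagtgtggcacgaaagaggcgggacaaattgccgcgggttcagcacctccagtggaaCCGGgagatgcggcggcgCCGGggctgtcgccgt

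Of the 51 CpGs, 28 were measured on at least 1 strand in at least 1 library, among them the CpGs of all 5 CCGG sites. Best covered was the stretch of 93 bases from the second to the third CCGG on the plus strand, which includes the 60 bases between the genes and held 13 of the 18 positions covered in all 6 libraries. It is printed with its CpGs in capitals, so that the levels below can be placed.
Stretch between 2 CCGG sites, chr9:53536799-53536891, plus strand: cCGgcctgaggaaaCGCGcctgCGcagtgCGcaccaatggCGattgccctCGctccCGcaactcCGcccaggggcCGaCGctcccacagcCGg
The letters CCAAT, the core of the CCAAT box bound by NF-Y, occur at position -165 from the Atm start on the opposite strand, and at -215 (gene strand) and -47 (opposite strand) from the Npat start. Searched on both strands, CCAAT is present in 37.4% of 32817 promoter windows of the same length. The GC box GGGCGG occurs once in the overlap of both windows, and in 35.6% of all windows. The matches at -165 and -215 are the same bases, read from either gene.

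Coverage was uneven along the locus. The libraries listed 30 (Control LT-HSC), 37 (Control ST-HSC), 25 (Control MPP), 39 (KI LT-HSC), 33 (KI ST-HSC) and 35 (KI MPP) of the 44 positions. Their coverage there summed to 705 to 1859 reads, with medians of 21 to 50.5 reads per position. Over all listed positions, coverage summed to 38284759 to 53884467 per library. In both sums a read is counted at each position it covers. Only positions with at least 10 reads are in the files. Of the 11 positions downstream of the Npat start, Control MPP listed 0 and the other libraries 6 to 11, so the Npat side cannot be compared between genotypes in MPP. All 18 positions covered in every library lie between 11 bases inside Atm and position -219, on the Npat side of its start.

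**Figure D1:**
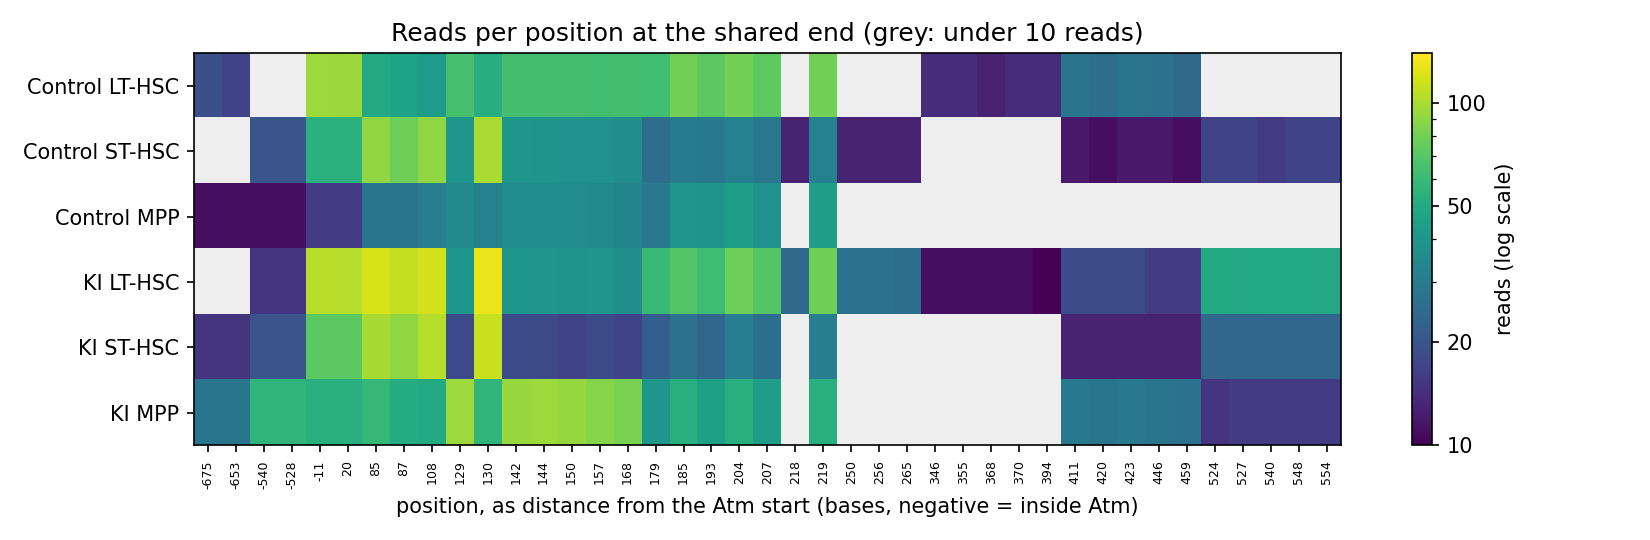
Reads per position (colour, log scale) for the 41 positions of the shared end (columns, labelled by distance from the Atm start in bases) in the 6 libraries (rows). Grey cells had under 10 reads. Control MPP has no filled cell on the Npat side of position -219, and the deepest cell is 129 reads in KI LT-HSC.

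The shared end was nearly free of methylation in every library. At 28 of the 44 positions not 1 methylated read was seen in any library. Over the 18 positions covered in all 6, 23 of 1212 reads were methylated in Control LT-HSC, a pooled share of 1.90% (Wilson 95% interval 1.27 to 2.83). The share was 1.71% (1.04 to 2.81) of 876 reads in Control ST-HSC and 1.85% (1.03 to 3.27) of 596 reads in Control MPP. In KI it was 2.25% (1.58 to 3.19) of 1336 reads in LT-HSC, 2.94% (1.98 to 4.34) of 816 in ST-HSC and 3.73% (2.78 to 4.99) of 1153 in MPP. Each KI library lay above its Control library, and within each cell type the intervals of both genotypes overlapped. These reads are summed over positions, here and below, so a read that spans several CpGs is counted once at each. The intervals treat such counts as independent, and reads can also be copies of 1 molecule. The intervals thus cover counting error only and can be too narrow.

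Among the 18 positions covered in all 6 libraries, most methylated reads sat at CpGs inside CCGG. The 4 CCGG positions covered in all 6 libraries held 23 of the 23 methylated reads in Control LT-HSC, 15 of 15 in Control ST-HSC and 11 of 11 in Control MPP, and 27 of 30, 20 of 24 and 38 of 43 in KI in the same order. Pooled, their level was 7.88% (Wilson 95% interval 5.31 to 11.5), 6.64% (4.06 to 10.7) and 8.66% (4.91 to 14.8) in the Control libraries of LT-HSC, ST-HSC and MPP. The KI libraries stood at 7.67% (5.32 to 10.9), 8.58% (5.63 to 12.9) and 14.8% (10.97 to 19.6). The 14 other positions had 0 of 920 reads methylated in Control LT-HSC, which allows a share of up to 0.326%, 0 of 650 in Control ST-HSC (up to 0.462%) and 0 of 469 in Control MPP (up to 0.640%). This limit for 0 methylated reads is 3 reads as a share of all reads. The upper Wilson 95% limits of these Control libraries are 0.416, 0.588 and 0.812%. KI had 3 of 984 reads in LT-HSC (0.305%, 0.104 to 0.893), 4 of 583 in ST-HSC (0.686%, 0.267 to 1.75) and 5 of 896 in MPP (0.558%, 0.239 to 1.30). Over all 41 positions of the shared end, CCGG held 26 of 26, 18 of 19 and 11 of 11 methylated reads in the Control libraries and 31 of 34, 20 of 33 and 41 of 66 in the KI libraries. Of the remainder, 9 reads in KI ST-HSC and 20 in KI MPP lay at positions beyond the printed windows, whose sequence was not analysed here. The split by CCGG was made after the values were seen and carries no test of its own.

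The same split was present in promoters across the genome. Over the promoter windows of all genes, 17561 CCGG positions and 75546 other positions were covered in all 6 libraries. The mean level at CCGG was 12.7 to 16.2% across libraries, and at the others 1.77 to 2.47%. Among windows with at least 3 CCGG and 5 other positions whose other positions averaged under 2%, CCGG stood higher in 92.9% (Control MPP) to 99.96% (KI ST-HSC and KI MPP) of 2412 to 2708 windows per library. These windows were picked in each library by their low levels outside CCGG, which favours a higher level at CCGG. The share over windows without that choice was not computed. The pattern at Atm and Npat was that of most such windows, which is a description and no test. Its cause was not tested. Where along the reads these CpGs lie was not analysed here, and whether the levels read at CCGG are methylation of the cells was not tested.

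**Figure D2:**
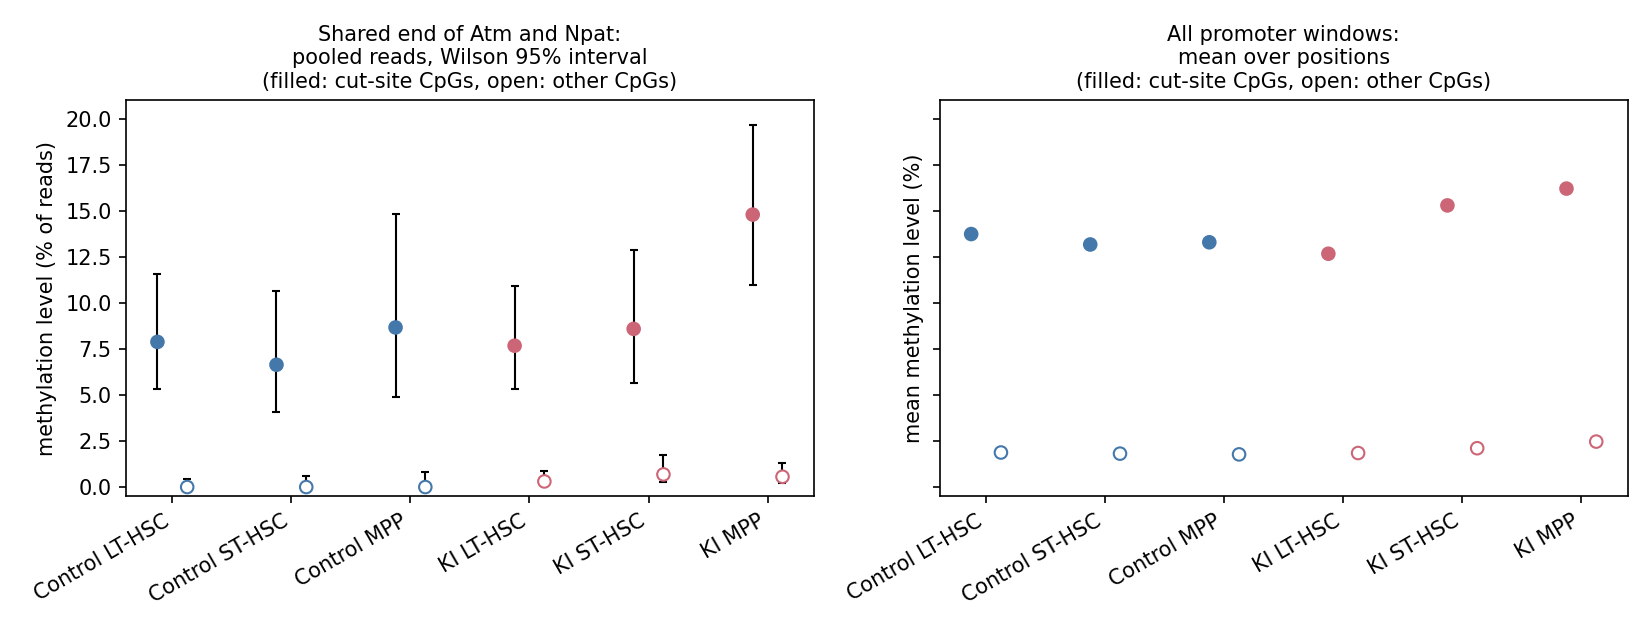
Methylation level (y axis, % of reads) in each library (x axis) at CpGs inside CCGG (filled) and at other CpGs (open), Control in blue and KI in red. The panels label CpGs inside CCGG as cut-site CpGs, after the usual enzyme MspI, although the enzyme used is not named in the sources. Left, pooled reads of the 4 and 14 positions of the shared end with Wilson 95% intervals; right, means over 17561 and 75546 positions of all promoter windows. In every library the filled points, from 6.64% upward, lie above the open ones, which reach at most 2.47%.

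Position by position, the CCGG levels varied between libraries and between strands. At 53536660 on the forward strand, 11 bases inside Atm, the Control libraries of LT-HSC, ST-HSC and MPP were at 1.05, 5.56 and 6.25%, and the KI libraries at 5.71, 1.39 and 3.77%, on 16 to 105 reads. Both genotypes spanned about the same range there. The CpG at 53536800 was read on both strands in all libraries. In the Control libraries, in the same order of cell types, its forward strand stood at 7.69, 15 and 0%, and in the KI libraries at 7.5, 0 and 20%. Its reverse strand, at 53536801, stood at 15.4, 2 and 0% for Control and 4.65, 14.3 and 10.7% for KI. The strands of this CpG differed by up to 14.3 points within 1 library (KI ST-HSC, 0 of 18 and 16 of 112 reads), and the genotypes differed by up to 20 points on 1 strand (MPP). The level at 53536890, on the reverse strand at the second base of the Npat extent, was 11.25, 12.5 and 22.7% for Control and 15.4, 9.68 and 20.8% for KI, so MPP was highest in both genotypes at this position.

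Outside CCGG, 3 positions covered in all libraries had methylated reads, all of them in KI. At 53536878 on the reverse strand, position -207 from the Atm start, every Control library was at 0%, and KI LT-HSC, ST-HSC and MPP were at 4.35, 15.4 and 0%. The KI ST-HSC value rests on 4 of 26 reads (Wilson 95% interval 6.15 to 33.5) and the KI LT-HSC value on 3 of 69 (1.49 to 12.0). At 53536756 and 53536758, positions -85 and -87, KI MPP had 3 of 58 and 2 of 51 methylated reads (5.17 and 3.92%) and the other 5 libraries had 0%. The remaining 11 positions outside CCGG were at 0% in all 6 libraries.

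The Atm side beyond these positions was covered in fewer libraries. At 53536143 on the reverse strand, 528 bases inside Atm, KI MPP had 17 of 56 reads methylated (30.4%, Wilson 95% interval 19.9 to 43.3), the highest level in the shared end. The level there was 0% in Control ST-HSC, Control MPP and KI LT-HSC, on 20, 11 and 15 reads, and 5% in KI ST-HSC. By the limit of 3 reads used above, the 11 reads of Control MPP allow a level of up to 27.3%. The depth therefore does not show how far the genotypes differ. Only 12 bases away, at 53536131 on the same strand, KI MPP had 0 of 56 reads methylated, and KI ST-HSC stood at 10%. At 53535996 and 53536018 all levels were 0% except 6.67% in KI ST-HSC at the former.

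On the Npat side, 9 of 11 positions had no methylated read in any library that covered them. The CCGG position 53537082 stood at 10.7% in Control LT-HSC, 25% in Control ST-HSC (3 of 12 reads), 5.56% in KI LT-HSC, 0% in KI ST-HSC and 10.3% in KI MPP. The genotypes overlapped there, with Control above KI in both cell types that can be compared. At 53537225, 178 bases inside Npat and beyond the printed window, the level was 5.88% in Control ST-HSC, 0% in KI LT-HSC, 20.8% in KI ST-HSC and 18.75% in KI MPP.

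**Figure D3:**
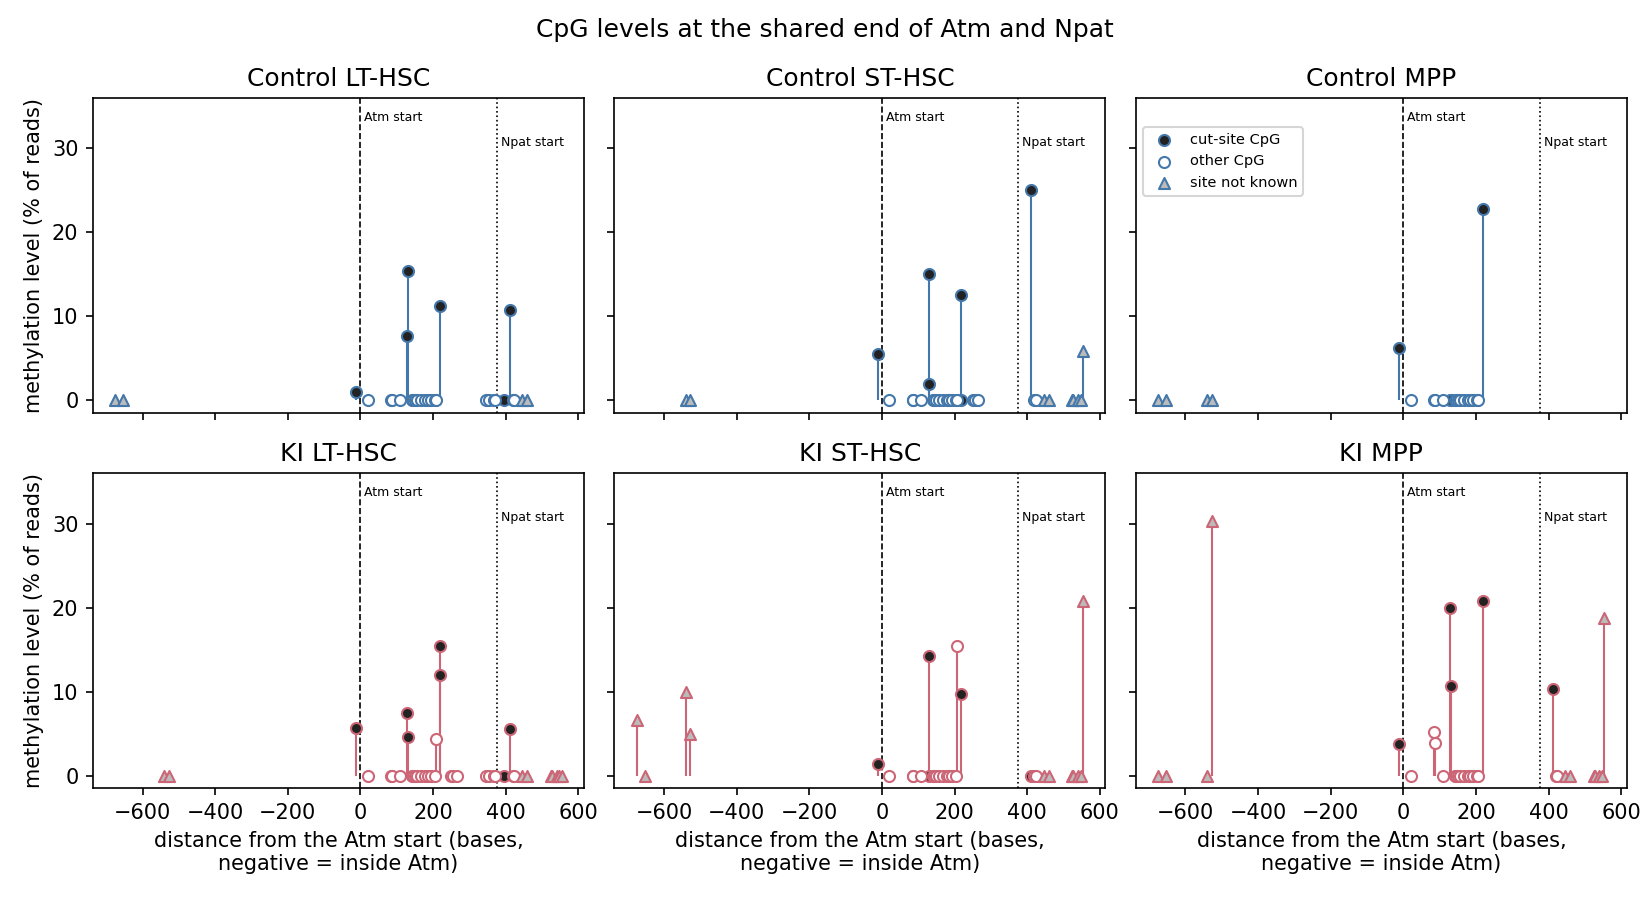
Methylation level (y axis, % of reads) of each position of the shared end in each library, against its distance from the Atm start in bases (x axis); dashed and dotted lines mark the starts of Atm and Npat. Filled points are CpGs in CCGG (labelled cut-site CpG, after the usual enzyme MspI), open points other CpGs, and triangles positions outside the printed windows. Of the 20 points above 0% between the starts, 16 are filled, and the highest point, 30.4%, is a triangle inside Atm in KI MPP.

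The body of Atm was methylated where it was measured. The 3 positions lie 28474 to 28586 bases downstream of the Atm start, at 53508085, 53508188 and 53508197, inside Atm; whether in an exon or an intron was not analysed here. All 3 were at 100% in Control ST-HSC (45 of 45 reads) and KI MPP (63 of 63), and KI ST-HSC had 14 of 14 reads methylated at the 1 position it covered. Control MPP stood at 100% at 2 positions and at 64% at 53508197 (16 of 25 reads, Wilson 95% interval 44.5 to 79.8). Neither LT-HSC library covered the body. The difference of 36 points between Control and KI MPP at 53508197 had an adjusted p of 0.0572 in the Fisher exact test and was not called.

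KI was compared with Control first at single CpGs. A two-sided Fisher exact test on methylated and unmethylated reads was run at every position covered in both libraries, with Benjamini-Hochberg adjustment over the genome, and a call needed both a difference of 25 percentage points or more and an adjusted p below 0.01. In LT-HSC 0 of 28 tested positions of the locus were called (2.42% of positions genome-wide), in ST-HSC 0 of 31 (0.665%) and in MPP 0 of 25 (4.01%). Among so few positions, shares like these come to about 1 position or fewer in each comparison. At an unadjusted p under 0.05 there were 1, 2 and 2 positions, where 14.5, 10.1 and 17.0% of positions genome-wide passed. Both libraries were at 0% at 22, 21 and 15 of the tested positions.

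The lowest adjusted p values were at the CpG at 53536800 and 53536801. In MPP, KI had 19 of 95 reads methylated on the forward strand (20%, Wilson 95% interval 13.2 to 29.1) and Control 0 of 35, with an adjusted p of 0.0240 in the Fisher test. In ST-HSC the reverse strand went from 2 of 100 reads in Control to 16 of 112 in KI, with an adjusted p of 0.0528, while the forward strand differed by -15 points. With both strands summed, this CpG in MPP went from 0 of 67 reads to 16.6% of 151 reads (adjusted p 0.00212, Fisher test), which passes the p threshold but not the 25 points. In LT-HSC the summed CpG was lower in KI, at 5.33% against 11.1% (adjusted p 0.566), and in ST-HSC it was 12.3% in KI against 5.71% (adjusted p 0.604). It is a CCGG site, and its direction differed between cell types.

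Summed over the 18 positions, the shared end was tested as 1 of 11462 CpG-rich gene ends, where a call needed an adjusted p below 0.01 and mean CpG levels 10 points or more apart. It was called in none of the 3 cell types in the Fisher exact test. That test also counts a read once at each CpG it spans, so its p values can be too small. The KI libraries were higher by 0.123 points in LT-HSC (adjusted p 0.696, with 1.58% of ends called), 0.316 points in ST-HSC (0.248, 1.84%) and 1.96 points in MPP (0.0710, 2.46%). The median over all gene ends was -0.171, 0.553 and 1.23 points, above the shared end in ST-HSC and below it in LT-HSC and MPP, where 57.5% and 64.4% of ends had a lower difference. The mean over cell types was 0.80 ± 1.01 points (SD over 3 cell types, which are not replicates), higher in KI in 3 of 3. That count held for these 18 positions. LT-HSC turned to -0.225 points with at least 20 reads per position and to -0.105 points with all positions covered in both libraries. The latter is of mean levels, and pooled reads there rose from 26 of 1415 methylated in Control to 31 of 1476 in KI. ST-HSC turned to -2.40 points on the forward strand alone. Exchanging genotypes within cell types gave p = 0.25 in a two-sided exact permutation test, the smallest p that 8 exchanges can give. The p was 0.5 with at least 20 reads and 1 on the forward strand.

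The size and the p value depended on which positions entered. In ST-HSC the difference became 2.48 points with at least 20 reads per position (adjusted p 0.0161 in the Fisher test) or on the reverse strand alone (0.0205), and 1.23 points when weighted by reads. With every position covered in both MPP libraries, 22 in number, the difference was 2.99 points with an adjusted p of 0.00307 in the Fisher test, still under the 10 points for a call. That set adds the 4 positions deeper in Atm, among them 53536143. An adjusted p below 0.01 was common in this comparison: over positions covered in all 6 libraries, 41.9% of all gene ends had one in the same Fisher test. Without the CCGG positions, an alternative chosen after the data were seen, the differences were 0.311, 1.10 and 0.650 points in LT-HSC, ST-HSC and MPP, with adjusted p values of 0.370, 0.145 and 0.245. At the CCGG positions alone, they were -0.532, -2.43 and 6.57 points. By pooled reads ST-HSC went the other way there, from 15 of 226 methylated in Control to 20 of 233 in KI.

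The window of 1 kb that holds the 18 positions (chr9:53536001-53537000) was the locus's only window with at least 5 positions covered in all libraries. It was fitted with limma among 25123 windows, with cell type as a block. On the log2 scale, the ratio of methylated over unmethylated reads was 0.65 higher in KI (SE 0.52, adjusted p 0.816), and the window was not called, against 0.00796% of all windows. This fit uses the spread between libraries. With 1 library per genotype and cell type, that spread is how the genotype difference varied across cell types, which are not replicates.

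From LT-HSC to MPP, the shared end showed no called difference in either genotype. Of its single positions, 0 of 20 were called in Control (5.62% genome-wide) and 0 of 30 in KI (1.29%), with 1 and 3 at an unadjusted p under 0.05 (17.4 and 12.7% genome-wide). As a gene end, its mean CpG level differed by -0.356 points in Control (adjusted p 1, with 2.57% of ends called). In KI it differed by 1.49 points (adjusted p 0.0621, 1.4%), both by the same Fisher test on summed reads. With all 30 positions covered in both KI libraries, the KI difference was 2.69 points with an adjusted p of 8.94e-05, again under 10 points. Over positions covered in all 6 libraries, 38.0% of all gene ends had an adjusted p below 0.01 in this KI comparison. Of the single positions, 53536801 stood at 15.4 and 0% in Control LT-HSC and MPP (adjusted p 0.145) and at 4.65 and 10.7% in KI (0.864), neither called in the Fisher test. In KI, 53536143 went from 0 of 15 to 17 of 56 reads (adjusted p 0.185) and 53537225 from 0 of 49 to 3 of 16 (0.168). The KI MPP library enters both this comparison and the genotype comparison in MPP, so they are not independent.

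Among divergent gene pairs, Atm and Npat lay below the median level and within the central 90% of differences. Pairs were taken where RefSeq places 2 genes back to back on opposite strands with at most 1000 bases between them, which gave 880 shared ends with at least 5 positions. The median level of these ends was 2.88% in Control LT-HSC, 2.76% in Control ST-HSC and 2.45% in Control MPP, and Atm and Npat stood at 1.97, 1.95 and 1.61%. In KI minus Control, the pairs had medians of -0.176, 0.534 and 1.36 points, and 59.2, 42.5 and 65.7% of them had a smaller signed difference than Atm and Npat. The central 90% of pairs in MPP ran from -2.78 to 5.17 points.

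**Figure D4:**
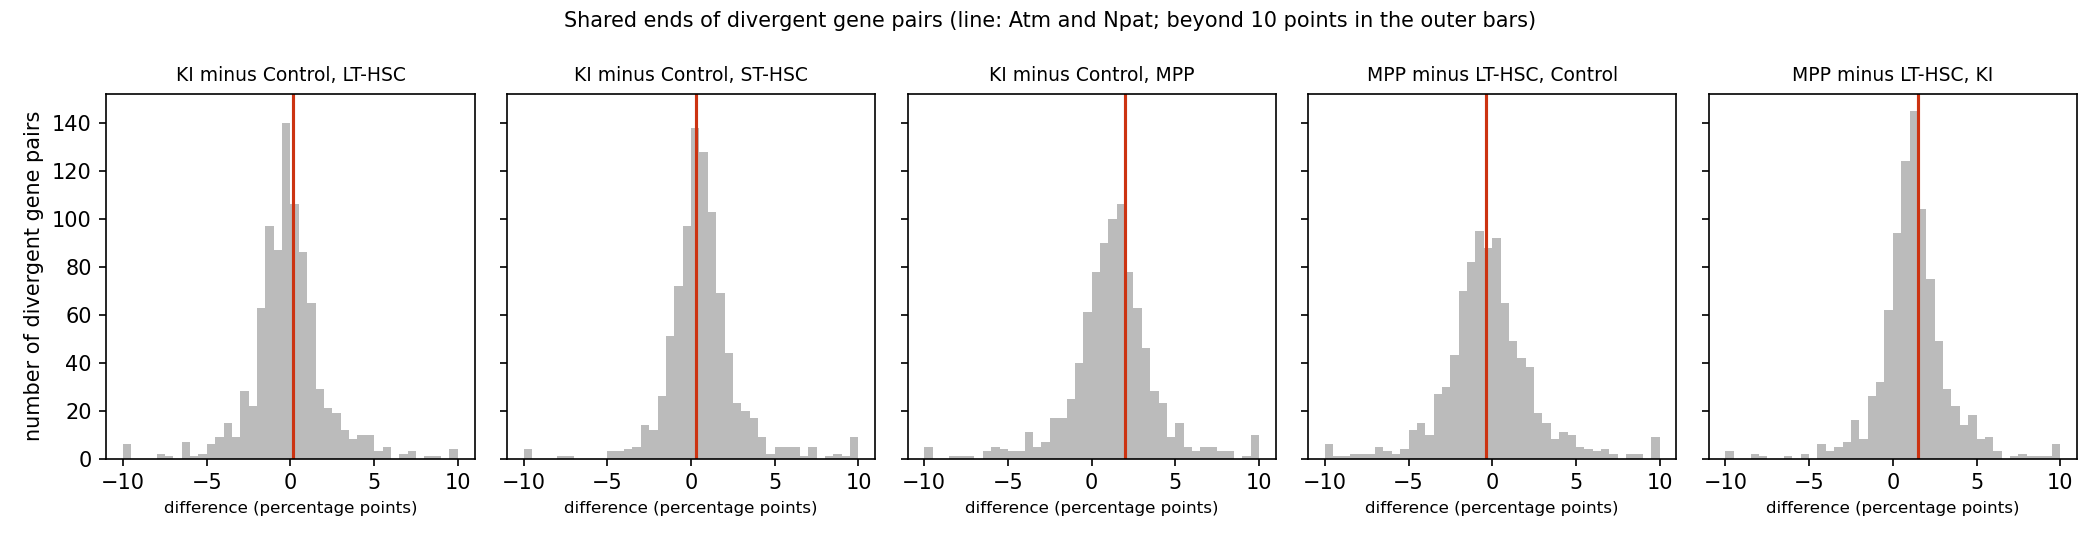
Number of divergent gene pairs (y axis, of 880) by the difference in mean CpG level at their shared end (x axis, percentage points, bins of 0.5 with values beyond 10 points in the outer bars) for each comparison. The red line marks Atm and Npat, which lies between -0.356 and 1.96 points and inside the bulk of the pairs in each panel.

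The genes that work with ATM and NPAT were described from lists chosen with earlier results of these data known. The ATM list holds 30 genes, such as Nbn and Rad50 of the break-sensing complex and the checkpoint kinase Chek1, and 21 had a CpG-rich end by the rule. Of these, 0 were called in either direction in LT-HSC, ST-HSC or MPP, where 1.58, 1.84 and 2.46% of all ends were, so a count of 0 in 21 is near the background. Their median KI minus Control difference was -0.373, 0.621 and 0.752 points, with single genes between -2.76 and 4.17 points. The list around NPAT holds 15 genes, among them Cdk2, Ccne1 and Hinfp, of which 13 were measured and 0 called, with medians of -0.155, 0.186 and 0.461 points and single genes between -3.27 and 9.20 points. Over all ends, the medians were those given above. From LT-HSC to MPP, too, 0 ends of either list were called in Control or KI.

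Within 1 Mb of the locus, 9 other genes had a CpG-rich end. Of these, 0 were called in any of the 5 comparisons, where 1.4 to 2.57% of all ends were, so a count of 0 in 9 is near the background too. The nearest was Gm16124, at 2.03, -0.0810 and 2.81 points in LT-HSC, ST-HSC and MPP. The end of Cul5, a ubiquitin ligase scaffold, overlaps it and differed by 0.646, 0.333 and 1.66 points in LT-HSC, ST-HSC and MPP, and the RNA helicase Ddx10 by 4.30, -0.0372 and 2.75 points. The widest differences near the locus were 8.89 points at Cib2 in ST-HSC and -7.51 points at Elmod1 in LT-HSC, both named after their values were seen.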

How the data were processed

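DNA methylation was measured in 6 libraries, 1 per genotype and cell type. Bismark 0.10.0, SAMtools 1.0 and methylKit 0.9.1 and the build mm10 come from the submitters' processing notes; their settings, any duplicate removal and the conversion rate were not given in the sources used here. Per the file headers, each cytosine position has a read count (coverage, never under 10) and the percent of its reads that were C or T. Multiplying these gave whole methylated reads at 100% of positions, within 0.01% of the coverage.

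Reads of 2 libraries were compared with two-sided Fisher exact tests and Benjamini-Hochberg adjustment over all positions or all gene ends (Python 3.11.15, numba 0.67.0). A gene end spanned 1000 bases outside and 500 inside a gene's boundary, held 5 or more positions covered in all 6 libraries, and had at least 3 times as many as the opposite end. For windows of 1 kb, limma 3.58.1 (R 4.3.3) was run with a variance trend and a prior count of 1, with a call at adjusted p below 0.05. The scripts were tested on simulated data. Gene extents, strands and sequences came from RefSeq tables of GRCm38.p6, and every position inside the printed windows lay on a CG. The members, lists and tests were chosen with earlier results of these data known. Named were Atm, Npat, every called position (none was called) and the 5 positions of the shared end covered in all libraries with the largest mean KI minus Control difference. Other positions, including those of the Atm body, were named after their values were seen. Alternatives were the coverage minimum, the weights, the positions used, the extent of the shared end, thinning to 10 reads, strands, thresholds, window settings and leaving out a cell type.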

Additional observations from a re-analysis of the deposited data

Results flagged for a closer look

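The results of 3 features went in opposite directions in different groups. Each group was 1 library per side, and the difference between groups was not tested. The shared end differed by -0.356 points from LT-HSC to MPP in Control and by 1.49 points in KI, 1.84 points apart. At 53536801 on the reverse strand, the genotype difference (KI minus Control) was lowest in LT-HSC at -10.7 points and highest in ST-HSC at 12.3 points, 23.0 points apart, and the step from LT-HSC to MPP was -15.4 points for Control and 6.06 points for KI, 21.4 points apart. At 53536800, the forward strand of the same CpG, KI minus Control ranged from -15 points in ST-HSC to 20 points in MPP, 35 points apart, and the step from LT-HSC to MPP was -7.69 points for Control and 12.5 points for KI, 20.2 points apart. This CpG lies in CCGG, and its strands differed by up to 14.3 points within 1 library.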

How the results depend on the processing

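Apart from counts, 71 differences were recomputed on other positions, weights or settings, all of them of the shared end or its window. Of these, 61 kept their direction, 2 became 0 and 8 turned, and none was called. Both that became 0 were MPP minus LT-HSC in Control, thinned to 10 reads and without CCGG. A shorter and a longer extent inside each gene left the same 18 positions and tested nothing. Among the 61, the window fits without the block and with at least 3 or 10 positions per window could only return the same log2 difference of 0.65. Their direction was therefore fixed. The means over cell types with a cell type left out could not turn either, because the main difference was above 0 in each. The other means over cell types average differences that were also counted singly. The shared-end differences with at least 20 reads are also the same values as those of the reverse strand alone, and both were counted. In LT-HSC, KI minus Control became -0.225 points with at least 20 reads per position, -1.65 points with at least 30 reads, -0.105 points with all positions covered in both libraries, -0.225 points on the reverse strand alone and -0.532 points at CCGG positions alone. Requiring 20 reads left the 10 reverse-strand positions, which is why both values are equal, and 30 reads left 4 positions. In ST-HSC it became -2.40 points on the forward strand alone and -2.43 points at CCGG positions alone. MPP minus LT-HSC in Control became 0.327 points with both strands summed. These turned values are differences of mean CpG levels, and some ran against the pooled reads. In LT-HSC with all positions covered in both libraries, methylated reads were 26 of 1415 in Control and 31 of 1476 in KI. In ST-HSC at CCGG they were 15 of 226 and 20 of 233. With both strands summed in Control, they were 23 of 1212 in LT-HSC and 11 of 596 in MPP, a fall from 1.90 to 1.85%. The choice of CCGG positions was added after the data were seen. The 20 recomputed counts of called CpGs at the locus were all 0, and the window's adjusted p in limma ran from 0.740 to 0.999. No position of the Atm body was covered in all 6 libraries, so other settings gave no value beside those in the text. No analysis paired by replicate number was possible, because the labels number no replicates; cell type paired the genotypes in the permutation test and in the limma fit, whose adjusted p without that block was 0.808. Depth limits single positions most, since 0 of 10 to 20 reads allows levels of 15% or more.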

Other observations

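Over all promoter windows, the difference between genotypes in percentage points was also larger at CCGG than at other CpGs, where levels were lower. The mean over 17561 CCGG positions differed by -1.07 points in LT-HSC, 2.12 points in ST-HSC and 2.91 points in MPP (KI minus Control). Over 75546 other positions it differed by -0.0277, 0.294 and 0.694 points. The Control means were 13.7, 13.2 and 13.3% at CCGG and 1.87, 1.81 and 1.77% at the others, in the same order of cell types. In proportion to these levels, the difference was larger at CCGG in LT-HSC, about equal in ST-HSC and smaller at CCGG in MPP. The share of CCGG positions at 0% was 28.8% (LT-HSC), 20.2% (ST-HSC) and 43.7% (MPP) for Control, and 13.99, 10.2 and 7.41% for KI. These values describe single libraries, and their cause was not tested.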
